A study of Homo sapiens with 6 samples.

Results

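The 10 genes described here are HIF1A, the oxygen-regulated subunit of hypoxia-inducible factor (HIF), and 9 genes known as HIF targets that act outside glycolysis: EGLN1, EGLN3, VEGFA, ADM, BNIP3, BNIP3L, NDRG1, ANKRD37 and KDM3A. They were picked by symbol from a written list, chosen with earlier results of these data known. All 10 were found among the 23228 gene symbols of the count table and among the 14504 genes tested. U2OS, a human cell line long established from an osteosarcoma, gave the RNA, 48 hours after transfection with RNAiMAX, a lipid reagent. In 3 libraries the cells had received scrambled siRNA, and in the other 3 siRNA against ALKBH5, an enzyme that takes the methyl group off N6-methyladenosine in RNA. All cells therefore went through transfection, and the labels name no low-oxygen treatment for either group. Neither the siRNA sequences nor a rescue are described in the labels, so loss of ALKBH5 and other effects of the siRNA cannot be told apart. Nothing says that the replicates were separate cultures, so p-values speak only to variation among these libraries, possibly technical.

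Each library held 18817181 to 23410007 reads in genes, so a level of 1 CPM (a count scaled to the size of its library) rests on about 18.8 to 23.4 reads. ALKBH5, the targeted gene, stood at 143 ± 4.92 CPM with scrambled siRNA and 17.1 ± 2.06 CPM after knockdown (SD, n = 3), 8.35-fold lower, as the group labels have it. The groups differed in much of the transcriptome: 61.6% of tested genes were called, 30.8% higher and 30.8% lower, and in 67.4% all libraries of a group lay on the same side of all libraries of the other. Of 13 osteoblast markers, 4 (SP7, IBSP, BGLAP and DLX5) stayed under 1 CPM in every library, while COL1A1, SPARC and RUNX2 were well above it. ALPL (3.97 ± 0.523 and 2.49 ± 0.592 CPM) and COL1A2 (4.44 ± 4.62 and 1.12 ± 0.459 CPM) were low. Of the 9 tested, 3 were called higher, 3 lower and 3 not called, and the number higher was 2 without knockdown replicate 2. Among markers of other cell types, the summed level of 9 leukocyte genes was 27.5 to 30.5 CPM with scrambled siRNA and 99.7 to 203 CPM after knockdown. Of these, LCP1, an actin-bundling protein that makes up most of the sum, and LAPTM5 were called higher, PTPRC and CORO1A were called lower, and CD3E had 0 reads in all libraries. For 10 endothelial genes the sums were 55.5 to 62.1 and 59.1 to 81.6 CPM; EGFL7, most of the sum, was called higher, VWF was called lower (5.62 ± 0.986 to 0.857 ± 0.470 CPM), and PECAM1 and CLDN5 were at or near 0. For 10 epithelial genes the sums were 548 to 641 and 626 to 650 CPM, with 3 called higher (KRT18, CLDN4 and CDH1) and 3 called lower (KRT8, KRT14 and CLDN7). The calls of PTPRC (without scrambled replicate 2 or 3, or knockdown replicate 2 or 3, adjusted p = 0.0878 to 0.0988), CORO1A (without scrambled or knockdown replicate 1 or 2, 0.0674 to 0.171) and EGFL7 (without scrambled replicate 2, 0.0536) were lost. In a DESeq2 fit the calls of PTPRC (adjusted p = 0.0786) and CORO1A (adjusted p = 0.0554) were lost too. The part of the cell type markers in the results was not tested.

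HIF is a pair of proteins, an alpha subunit such as HIF-1α (HIF1A) and the constant partner ARNT. When oxygen is plentiful, prolyl hydroxylases encoded by the EGLN genes mark HIF-1α, the VHL ubiquitin ligase binds the mark, and the protein is destroyed, so the level of HIF1A message alone does not give the level of the protein. When oxygen is scarce HIF-1α persists, joins ARNT, and binds hypoxia response elements with the core ACGTG or GCGTG near its targets. The targets bring in blood vessels (VEGFA, ADM), remove mitochondria (BNIP3, BNIP3L), adjust chromatin (KDM3A) and feed back on HIF itself (EGLN1, EGLN3).

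The core of the response element was looked for in promoter windows from RefSeq (GRCh38.p14), each reaching from 250 bases before to 50 bases after a transcript start, on both strands. A match describes the letters only and is not a measured HIF site. Windows were found for 7 of the 10 genes, with VEGFA, BNIP3L and NDRG1 not matched, and 7 of their 9 windows (77.8%) held at least 1 core. The windows of KDM3A overlap and hold the same core, which was counted in each of them. ACGTG was in 24.8% and GCGTG in 47.6% of the windows of tested genes, and either core in 59.6%, so single GCGTG matches are common. The cores printed here set the promoters of genes that rose (ANKRD37, BNIP3, ADM, HIF1A) beside those of genes that did not pass the test (EGLN1, KDM3A). Capitals mark the core, and CACGTG is ACGTG read on both strands at once. All are written 5′ to 3′ on the strand of the gene. In BNIP3, 4 further GCGTG cores on the opposite strand, which read CACGC on the strand of the gene, lie between 143 and 104 bases before the start. No core was in the EGLN3 window, nor in the window of a second HIF1A start.
ANKRD37, chr4:185396669-185396694, plus strand: cgccgggctcCACGTGccagtgtttg
ANKRD37, chr4:185396688-185396712, plus strand: gtgtttgtgtACGTGcggccgtggc
BNIP3, chr10:131982042-131982067, minus strand: gcacgcgccgCACGTGccacacgcac
EGLN1, chr1:231422286-231422310, minus strand: gccgtggtgtACGTGcagagcgcgc
ADM, chr11:10304962-10304986, plus strand: gcaggagcgcGCGTGgctgaggaaa
KDM3A, chr2:86441335-86441359, plus strand: gggaggctgtGCGTGtcttgtgaga
HIF1A, chr14:61695299-61695323, plus strand: gctgagagcgGCGTGggctggggtg

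Of the 10 genes, 7 rose in the knockdown libraries, 0 fell and 3 did not pass the test. In all tested genes 61.6% were called, and 30.8% were higher. The 7 genes that rose were also those whose groups did not overlap, as was so for 67.4% of all tested genes. Over all 10 genes the median log2 change was 1.06, against 0.01 over all tested genes, and the quartiles of all tested genes were −0.45 and 0.47. Because the 10 genes were chosen with earlier results of these data known, this contrast was not tested. The genes that rose spanned a range of sizes, from a log2 change of 0.85 for VEGFA to 2.09 for ADM. The genes that did not pass were EGLN1, EGLN3 and KDM3A, of which EGLN3 had the widest spread and the others lay close to no change. In RNA from whole cultures, more cells carrying a message and more message per cell cannot be told apart.

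**Figure D1:**
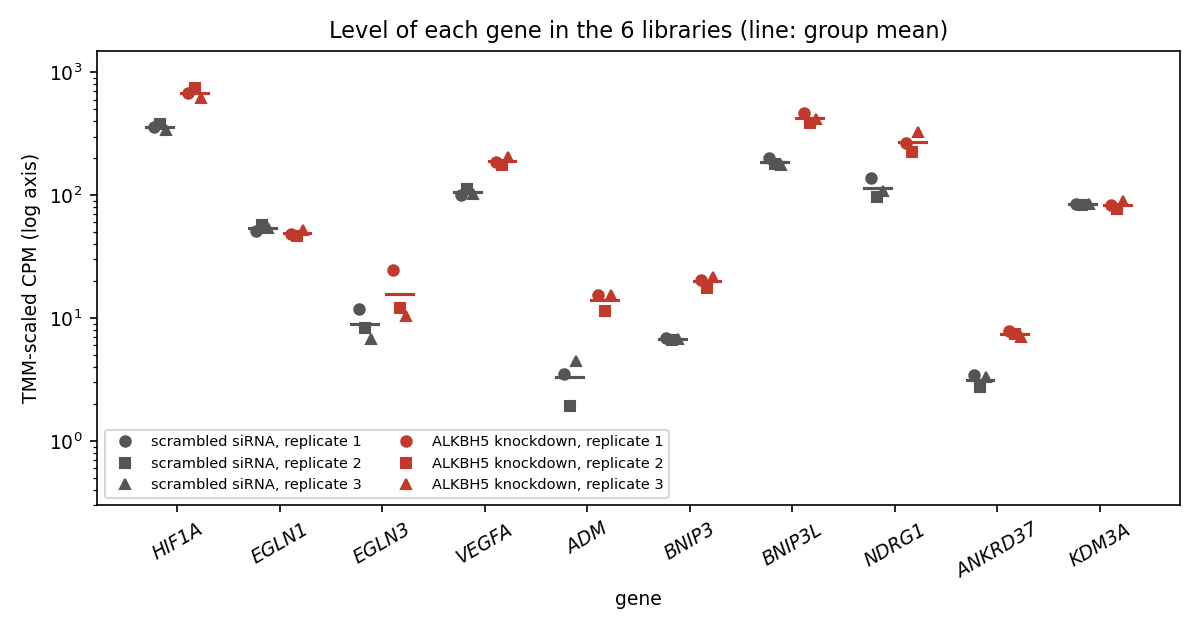
TMM-scaled CPM (log axis) of each gene in the 3 scrambled (grey) and 3 knockdown (red) libraries, with markers for the replicate number and a line at the group mean. The groups are apart for 7 genes, and overlap for EGLN1, EGLN3 and KDM3A.

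Divided by the length of each gene's longest coding transcript in GENCODE 29, the levels could be ordered. In the scrambled libraries HIF1A was the most abundant at 90.4 ± 4.77 CPM per kilobase (SD, n = 3), followed by BNIP3L at 51.5 ± 3.80. NDRG1 (30.6 ± 5.72) and VEGFA (29.8 ± 1.94) came next with overlapping ranges, then KDM3A (17.2 ± 0.223) and EGLN1 (7.61 ± 0.470). The least abundant were EGLN3 (3.14 ± 0.904), ANKRD37 (2.77 ± 0.330), BNIP3 (2.38 ± 0.0407) and ADM (1.76 ± 0.689), and each overlapped its neighbour in this order. In the knockdown libraries the first 5 kept their order, from HIF1A at 173 ± 15.9 to KDM3A at 17.1 ± 1.30 CPM per kilobase. The other 5 lay at means of 5.52 to 7.44 CPM per kilobase with overlapping ranges, and ADM, lowest in the scrambled libraries, now had the highest mean of these. One length per gene was used, so isoforms of other lengths would shift these levels. Reads placed at several positions were not counted for any gene, and their part in this order was not tested.

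HIF1A message rose. The scrambled libraries held 357, 377 and 339 CPM and the knockdown libraries 682, 746 and 620 CPM. The lowest knockdown library was well above the highest scrambled one, and each value rested on 6486 or more reads. The means were 358 ± 18.9 and 683 ± 62.9 CPM (1.91-fold higher, log2 change 0.93, SE 0.08, adjusted p = 1.68e-06 by edgeR's quasi-likelihood test with Benjamini-Hochberg adjustment over all tested genes, used throughout). The antisense genes HIF1A-AS1 and HIF1A-AS2 were not matched in the count table, and no source used here gives the strand setting of the counting, so reads from the opposite strand cannot be told apart.

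EGLN1 encodes PHD2, the main oxygen-sensing prolyl hydroxylase of HIF-1α. Its levels were 50.9, 57.5 and 53.6 CPM with scrambled siRNA and 48.4, 46.2 and 52.3 CPM after knockdown. The groups overlapped through knockdown replicate 3. The means were 54.0 ± 3.34 and 49.0 ± 3.08 CPM, with a log2 change of −0.14 (95% interval −0.34 to 0.06, adjusted p = 0.198). The upper end of that interval is far under the change of HIF1A. In reads of the same library, which need no scaling between libraries, there were 7.01, 6.55 and 6.33 reads of HIF1A per read of EGLN1 with scrambled siRNA and 14.1, 16.1 and 11.9 after knockdown. This ratio was 6.63 ± 0.345 against 14.0 ± 2.14 (exact permutation p = 0.1, the smallest that 3 against 3 allow, and 0.1 adjusted over 4 ratios tested).

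EGLN3 encodes PHD3, a hydroxylase of the same family that HIF induces strongly in many cells. It stood at 11.8, 8.31 and 6.75 CPM with scrambled siRNA and 24.7, 12.1 and 10.3 CPM after knockdown. Replicate 1 was the highest in both groups, and knockdown replicate 3 lay below scrambled replicate 1. The means were 8.95 ± 2.58 and 15.7 ± 7.84 CPM (log2 change 0.81, SE 0.35, 95% interval −0.02 to 1.63, adjusted p = 0.0811), so a difference was not shown. This result depended on single libraries and on the fit. Without knockdown replicate 1 the log2 change was 0.32 (adjusted p = 0.217), whereas leaving out scrambled replicate 1 (1.06, adjusted p = 0.0403) or knockdown replicate 3 (1.04, adjusted p = 0.0216) gave a call. It was also called without robust moderation of the dispersions (adjusted p = 0.0369). With the replicate number as a block it was called too (log2 change 0.77, adjusted p = 0.000211).

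Of 17 other genes of the HIF pathway tested, 8 were higher, 5 lower and 4 not called, beside 30.8% higher and 30.8% lower over all tested genes. Their median log2 change was 0.13, and of those called only CITED2 had a larger change in size than HIF1A. The number lower was 3 without scrambled replicate 1, without scrambled replicate 2 and without knockdown replicate 3. EPAS1, which encodes the sister subunit HIF-2α, rose from 40.4 ± 3.75 to 55.8 ± 5.04 CPM (log2 change 0.46, adjusted p = 0.002). In reads of the same library there were 8.88 ± 0.808 reads of HIF1A per read of EPAS1 with scrambled siRNA and 12.4 ± 2.03 after knockdown (exact permutation p = 0.1). ARNT, the partner of both, went from 85.7 ± 5.83 to 72.7 ± 5.05 CPM (log2 change −0.24, adjusted p = 0.0328). That call was lost without scrambled replicate 1 or 2 and without knockdown replicate 2 or 3 (adjusted p = 0.0818 to 0.118).

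On the side of HIF breakdown and restraint, VHL fell from 101 ± 4.85 to 80.9 ± 5.91 CPM and RBX1, the ring subunit of its ligase, from 74.8 ± 0.503 to 53.1 ± 10.3 CPM. Elongin B (TCEB2), another subunit, rose from 167 ± 6.93 to 216 ± 5.67 CPM. The further subunits TCEB1 (log2 change 0.27, adjusted p = 0.0255) and CUL2 (0.21, adjusted p = 0.0409) were also called higher. With HIF1A included, the number of pathway genes higher went from 9 to 7 without knockdown replicate 2 or with no scaling factor. HIF1AN, the hydroxylase that blocks binding of coactivators to HIF, rose from 121 ± 5.91 to 152 ± 9.37 CPM, and OS9, reported to bind HIF-1α and the hydroxylases, from 288 ± 7.32 to 385 ± 5.33 CPM. CITED2, which competes with HIF-1α for the coactivators CREBBP and EP300, fell from 57.1 ± 10.9 to 17.4 ± 1.03 CPM (log2 change −1.71, SE 0.14, adjusted p = 7.29e-07). CREBBP and EP300 themselves were called higher, both at a log2 change of 0.44. EGLN2, the third prolyl hydroxylase, had 0 to 2 reads per library, and both RAB4B and the read-through gene RAB4B-EGLN2 had 0. These gene models overlap, so no level of EGLN2 is given.

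VEGFA, the growth factor that draws in blood vessels, rose. Its levels were 101, 113 and 102 CPM with scrambled siRNA and 186, 177 and 206 CPM after knockdown. Every knockdown library was above every scrambled one, and the spread inside each group was small. The means were 105 ± 6.86 and 190 ± 14.8 CPM (log2 change 0.85, SE 0.08, adjusted p = 3.58e-06).

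Of 8 other VEGF ligands and receptors tested, 5 were higher and 3 lower, beside 30.8% in each direction over all tested genes. VEGFB, a ligand of FLT1, fell from 81.0 ± 7.66 to 10.7 ± 2.84 CPM (7.59-fold lower, log2 change −2.92, SE 0.17, adjusted p = 2.31e-07). VEGFC, which acts on lymphatic vessels, fell from 22.5 ± 3.11 to 9.80 ± 0.425 CPM, while PGF, placental growth factor, rose from 13.5 ± 0.421 to 18.9 ± 1.25 CPM. In the scrambled libraries there were 1.34, 1.45 and 1.14 reads of VEGFA per read of VEGFB. After knockdown the ratio was 15.7, 23.9 and 16.2 (1.31 ± 0.156 against 18.6 ± 4.61, exact permutation p = 0.1). FIGF, the gene of VEGF-D, had 0 reads in all libraries.

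Among receptors the coreceptor NRP1 rose from 90.4 ± 7.75 to 232 ± 19.4 CPM (log2 change 1.36, adjusted p = 1.5e-07), and FLT4, the receptor of VEGFC, from 9.58 ± 1.58 to 15.8 ± 2.39 CPM. The other receptors were low. FLT1 stood at 0.366 ± 0.0934 and 1.00 ± 0.246 CPM, NRP2 at 0.937 ± 0.218 and 1.83 ± 0.129 CPM, and both were called higher. KDR, the main signalling receptor of VEGFA, was called lower, with 25, 22 and 20 reads with scrambled siRNA and 2, 2 and 0 reads after knockdown.

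ADM, the precursor of the vasodilator peptide adrenomedullin, rose the most of the 10 genes. It had 3.54, 1.92 and 4.50 CPM with scrambled siRNA and 15.4, 11.4 and 15.4 CPM after knockdown, from 40 to 86 and 216 to 301 reads. Scrambled replicate 2 was low, at about 40 reads, but all 3 knockdown libraries lay above all scrambled ones. The means were 3.32 ± 1.30 and 14.1 ± 2.34 CPM (4.24-fold higher, log2 change 2.09, SE 0.26, adjusted p = 4.41e-05). ADM2, which encodes the related peptide intermedin, rose from 42.7 ± 3.42 to 56.7 ± 1.61 CPM (log2 change 0.41). The receptor genes were low: CALCRL, the receptor itself, was not tested at 0.302 ± 0.164 and 0.396 ± 0.231 CPM. Its partner RAMP2 stood at 3.68 ± 0.528 and 3.09 ± 0.908 CPM and RAMP1 had a log2 change of 0.08, neither of which passed the test.

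BNIP3 and BNIP3L, paired mitophagy receptors on the outer mitochondrial membrane, both rose. BNIP3 had 6.91, 6.68 and 6.80 CPM with scrambled siRNA and 20.5, 17.7 and 21.7 CPM after knockdown. The scrambled values were nearly equal, and the lowest knockdown value was far above them. Its means were 6.79 ± 0.117 and 19.9 ± 2.05 CPM (2.93-fold higher, log2 change 1.55, SE 0.13, adjusted p = 8.36e-07). BNIP3L, also called NIX, had 201, 180 and 176 CPM with scrambled siRNA and 469, 389 and 419 CPM after knockdown. No values overlapped between its groups. Its means were 186 ± 13.7 and 426 ± 40.4 CPM (2.29-fold higher, log2 change 1.20, SE 0.09, adjusted p = 3.59e-07). BNIP3L gave 25.9 to 29.2 reads per BNIP3 read with scrambled siRNA and 19.4 to 22.9 after knockdown. The ratio was 27.3 ± 1.68 against 21.4 ± 1.84 (exact permutation p = 0.1), so BNIP3L had more counted reads in both groups. BNIP3P1, a BNIP3 pseudogene, was not matched in the count table. Reads placed at several positions were not counted for any gene, and their part in this ratio was not tested.

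Of 11 others in a list of mitophagy genes, which also held BNIP1 and BNIP2, 4 were higher, 4 lower and 3 not called. These shares were near those of all tested genes (30.8% higher and 30.8% lower). BNIP2, which shares part of its name and of its binding partners with BNIP3, fell from 192 ± 13.1 to 112 ± 13.5 CPM. BNIP1 did not pass the test (20.2 ± 1.74 and 19.9 ± 1.64 CPM). The mitophagy receptors FUNDC1 and BCL2L13 had log2 changes of −0.68 and −0.60, and NLRX1 had a log2 change of −0.81. RHEB, an activator of mTORC1 that also works in mitophagy, rose with a log2 change of 1.41, as did the kinase PINK1 (0.52) and the ligase MUL1 (0.49). Parkin (PARK2) rose from 0.254 ± 0.156 to 1.55 ± 0.473 CPM, from 2 to 10 and 20 to 39 reads. FKBP8 and PHB2 stood at log2 changes of 0.01 and −0.04 and did not pass the test.

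NDRG1, a cytoplasmic protein induced by low oxygen and other stress and linked to growth arrest, rose. Its levels were 139, 97.1 and 109 CPM with scrambled siRNA and 264, 223 and 329 CPM after knockdown. The libraries of each group differed more than for VEGFA or BNIP3L, but the groups were apart. The means were 115 ± 21.5 and 272 ± 53.0 CPM (2.36-fold higher, log2 change 1.24, SE 0.16, adjusted p = 0.000167). The 3 other NDRG genes all fell. NDRG2 went from 40.1 ± 5.36 to 19.5 ± 2.16 CPM, NDRG3 from 67.1 ± 0.491 to 25.2 ± 2.38 CPM and NDRG4 from 28.3 ± 2.07 to 15.5 ± 3.18 CPM. Their log2 changes were −1.04, −1.41 and −0.86, opposite in sign to that of NDRG1.

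ANKRD37, a small ankyrin repeat protein known mainly as a HIF-1 target, rose at a low level. It had 3.45, 2.74 and 3.30 CPM with scrambled siRNA and 7.78, 7.42 and 7.07 CPM after knockdown, from 57 to 83 and 138 to 152 reads. The knockdown libraries were close to each other and above all scrambled ones. The means were 3.16 ± 0.376 and 7.42 ± 0.356 CPM (2.35-fold higher, log2 change 1.23, SE 0.17, adjusted p = 6e-05). In GENCODE 29 the end of ANKRD37 overlaps UFSP2 on the other strand, and LRP2BP lies just before its start, also on the other strand. UFSP2, which processes the ubiquitin-like protein UFM1, fell from 38.7 ± 2.01 to 27.4 ± 3.15 CPM, so it moved opposite to ANKRD37. LRP2BP rose from 0.461 ± 0.111 to 1.48 ± 0.202 CPM, from 8 to 11 and 25 to 32 reads. The part of shared reads in these values was not tested.

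KDM3A, an oxygen-dependent demethylase of histone H3 lysine 9 that HIF induces in many cells, did not pass the test. It had 85.5, 83.5 and 85.4 CPM with scrambled siRNA and 83.8, 77.8 and 90.6 CPM after knockdown. The knockdown values lay on both sides of the scrambled ones. The means were 84.8 ± 1.10 and 84.0 ± 6.42 CPM (log2 change −0.01, 95% interval −0.19 to 0.17, adjusted p = 0.901). Its closest relatives fell: KDM3B from 115 ± 6.36 to 72.6 ± 2.29 CPM and JMJD1C from 196 ± 9.52 to 129 ± 8.35 CPM (log2 changes −0.67 and −0.61).

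Over the JmjC histone demethylases of the KDM3 to KDM6 groups, 3 of 11 others were higher, 5 lower and 3 not called, beside 30.8% higher and 30.8% lower over all tested genes. KDM4A fell from 219 ± 8.01 to 71.1 ± 6.23 CPM (log2 change −1.62) and KDM5B, which acts on histone H3 lysine 4, from 189 ± 15.3 to 95.1 ± 8.19 CPM. KDM4B, itself a HIF target, rose from 35.8 ± 2.70 to 46.6 ± 5.43 CPM (log2 change 0.38). KDM4C and KDM4D were called higher at log2 changes of 0.44 and 0.49. KDM4C lost its call without scrambled replicate 1 or 3 and without knockdown replicate 1 or 3 (adjusted p up to 0.121). KDM4D lost it without scrambled replicate 1 or 2 and without knockdown replicate 2 (up to 0.0947). Both calls were also lost with no scaling factor (adjusted p = 0.0672 for KDM4C and 0.0525 for KDM4D). In a DESeq2 fit that of KDM4D was lost too (adjusted p = 0.0737). The number higher was 1 without scrambled replicate 1 and with no scaling factor.

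**Figure D2:**
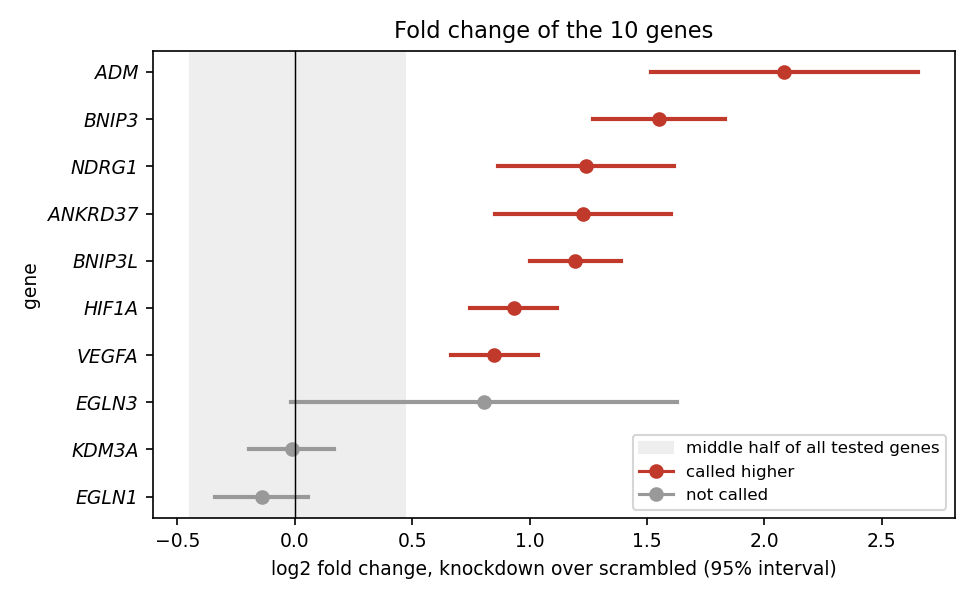
Log2 fold change (knockdown over scrambled) of the 10 genes with 95% intervals from the quasi-likelihood fit. Genes called higher are red and genes not called are grey, and the shaded band is the interquartile range of all tested genes (−0.45 to 0.47). The 7 red intervals lie to the right of the band, while those of EGLN3, KDM3A and EGLN1 include 0.

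**Figure D3:**
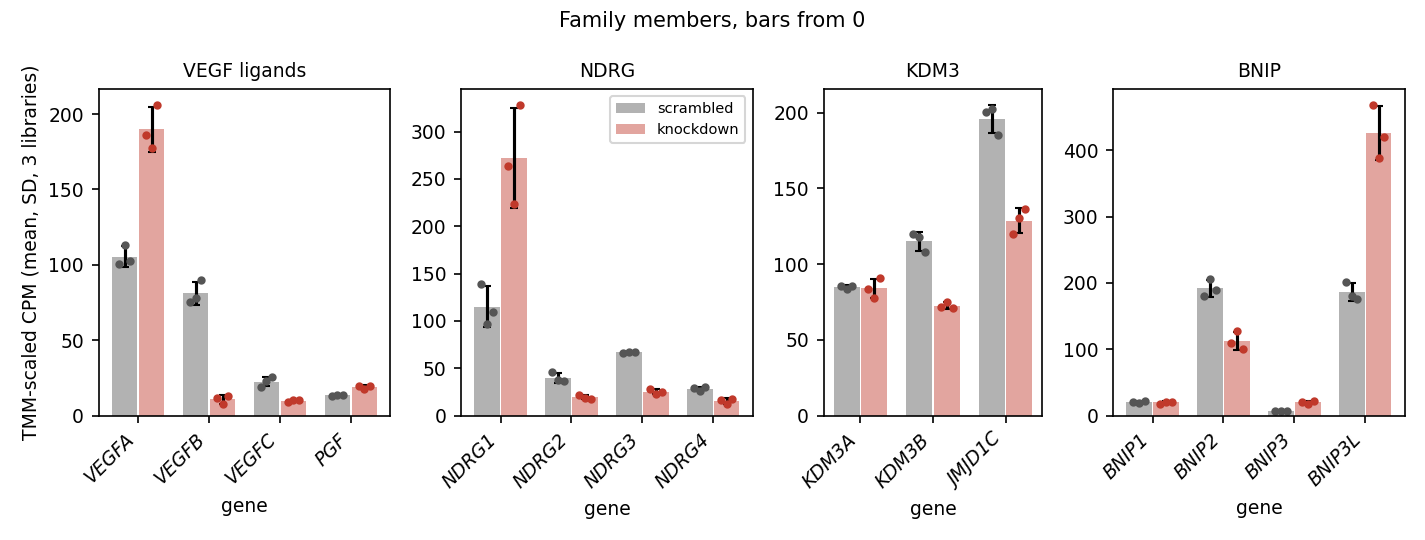
TMM-scaled CPM of VEGF ligands, NDRG genes, KDM3 genes and BNIP genes in scrambled (grey) and knockdown (red) libraries, with bars from 0 at the mean, error bars of 1 SD and a point per library (n = 3). VEGFA rises while VEGFB and VEGFC fall, NDRG1 rises while NDRG2, NDRG3 and NDRG4 fall, and the groups of KDM3A overlap while KDM3B and JMJD1C fall.

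A list of 46 other HIF targets, mostly outside glycolysis, was read off the same fit. It includes the glucose transporter SLC2A3 (log2 change 0.45, called higher). Of 45 tested, 28 were higher, 8 lower and 9 not called, where 30.8% of all tested genes were higher and 30.8% lower. The median log2 change was 0.45, against 0.01 over all tested genes. Tested against a 1.5-fold change, 11 of the list were higher and 2 lower, beside 1891 higher and 1710 lower of all 14504 tested genes. Leaving out single libraries gave 23 to 27 of the list higher and 6 to 9 lower. The lysyl oxidase LOXL2, which crosslinks collagen, rose from 200 ± 0.359 to 413 ± 19.2 CPM (log2 change 1.05, adjusted p = 1.68e-07). BHLHE40, a transcriptional repressor also known as DEC1, rose from 126 ± 9.13 to 313 ± 41.6 CPM (1.31), and ERO1L, an oxidase that forms disulfide bonds in the endoplasmic reticulum, from 113 ± 17.5 to 296 ± 21.1 CPM (1.39).

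Some known targets fell. HMOX1, the haem oxygenase that NRF2 also drives, went from 105 ± 3.82 to 48.3 ± 7.72 CPM (log2 change −1.13), CCNG2, an unusual cyclin of resting cells, from 134 ± 12.2 to 67.9 ± 10.5 CPM (−0.98), and FAM13A from 18.6 ± 0.730 to 10.9 ± 0.391 CPM (−0.77).

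Of 20 glycolytic HIF targets, 13 were higher, 4 lower and 3 not called, beside 30.8% higher and 30.8% lower over all tested genes. Their median log2 change was 0.32. Tested against a 1.5-fold change, 3 of the 20 were higher and 2 lower, beside 1891 higher and 1710 lower of all 14504 tested genes. Leaving out single libraries gave 10 to 14 higher and 3 to 4 lower. PDK1, which keeps pyruvate out of mitochondria, rose from 11.1 ± 1.59 to 29.5 ± 4.77 CPM, and PFKFB4, a regulator of glycolytic flux, from 18.7 ± 3.85 to 54.3 ± 13.3 CPM. The glucose transporter SLC2A1 rose by 1.72 on the log2 scale, while TPI1, HK1 and PFKFB3 had log2 changes of −1.19, −0.80 and −0.52. The 10 genes described here had a median log2 change above that of either list, but they were named with earlier results of these data known, and the difference between lists was not tested.

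**Figure D4:**
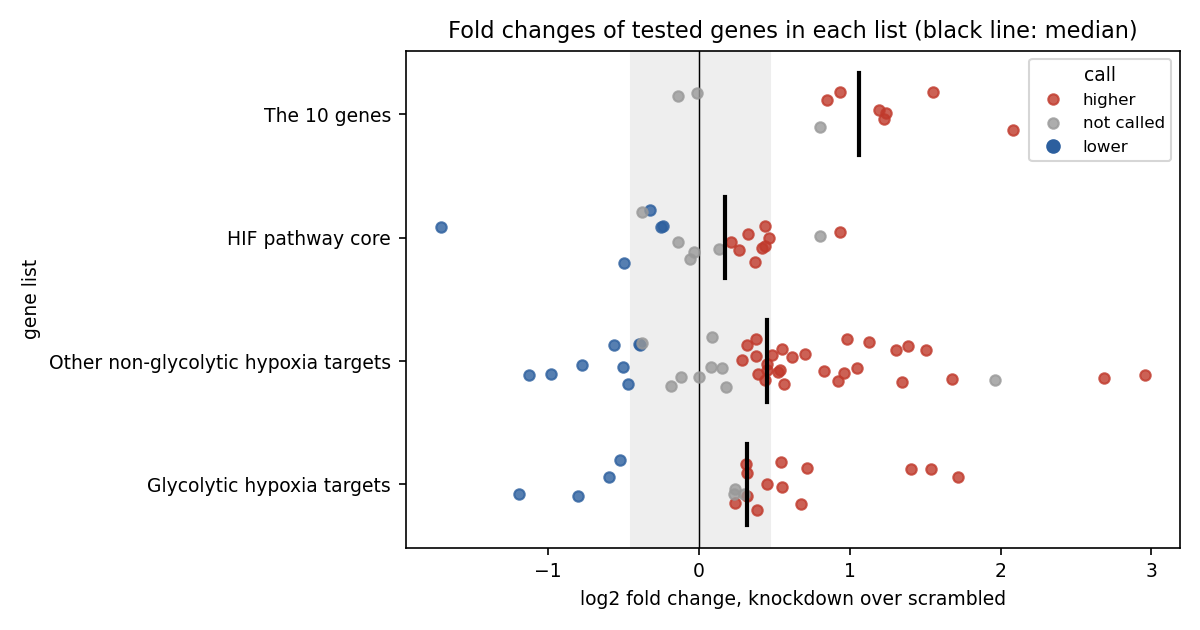
Log2 fold change (knockdown over scrambled) of tested genes in the group of 10, the HIF pathway list (20 tested, including HIF1A, EGLN1 and EGLN3), the other non-glycolytic targets (45 tested) and the glycolytic targets (20 tested). Points are genes coloured by call, black lines are medians (1.06, 0.17, 0.45 and 0.32) and the shaded band is the interquartile range of all tested genes.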

How the data were processed

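The authors deposited raw, unnormalised read counts for each gene symbol in 6 libraries (single reads of 50 bases). Per the submitters' processing notes, CASAVA 1.8.2, TopHat2, SAMtools and HTSeq were used with the build hg19; settings, annotation and strand are not stated in them. HTSeq's summary lines entered neither library sizes nor tests; reads outside genes were 15.0% to 15.5% of uniquely placed reads with scrambled siRNA and 17.3% to 18.6% after knockdown. Counts were fitted with edgeR 4.0.16 in R 4.3.3 (filterByExpr, TMM, robust glmQLFit, 2-sided glmQLFTest, group as the only term), adjusted by Benjamini-Hochberg over all 14504 tested genes, with calls at adjusted p under 0.05. CPM values are TMM-scaled, with mean ± SD over 3 libraries. The fit was run on simulated data with few changed genes and the same dispersion for every gene. It recovered 73.1% of 1.5-fold, 95.5% of 2-fold and 98.5% of 4-fold changes, with 9 false calls among 186. Far more genes are called in the real data and their spreads differ, so error control under those conditions was not tested.

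The genes and the lists were chosen with earlier results of these data known. Named besides the 10 genes were their partners, family members and neighbours, and in each other list up to 3 higher and 3 lower called genes with the smallest adjusted p. Alternatives were RLE scaling, no scaling factor, other filters on low counts, DESeq2 1.42.0, limma-voom (limma 3.58.1), no robust moderation, glmTreat, the replicate block and each library left out.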

Additional observations from a re-analysis of the deposited data

How the results depend on the processing

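The 7 genes called higher (HIF1A, VEGFA, ADM, ANKRD37, BNIP3, BNIP3L and NDRG1) were higher and called under all 15 alternatives run, glmTreat against a 1.5-fold change included, and EGLN1 and KDM3A were called under none. EGLN3 was called under 4, including the fit with the replicate number as a block (log2 fold change 0.77, adjusted p = 0.000211). With that block 8 of the 10 genes and 67.3% of all tested genes were called, against 7 and 61.6%. The labels do not say whether the numbers pair the libraries. Deviations of same-numbered libraries correlated at 0.331, 0.0578 and 0.351, and those of differently numbered libraries at −0.367 to 0.0768. Pairing was not tested, and the main fit leaves the number out. Against a 1.5-fold change the calls over all genes dropped to 3601, with 1891 higher and 1710 lower. Leaving out single libraries gave 7878 to 8694 calls, 3899 to 4391 higher and 3979 to 4325 lower, and 7 to 8 of the 10 genes higher. With no scaling factor the median log2 fold change of all genes moved from 0.01 to −0.06. Depth limits ADM and ANKRD37 the most, which rest on as few as 40 and 57 reads in a library.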

Other observations

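CA9, the membrane carbonic anhydrase often used as a marker of low oxygen, is taken up here after its values were seen. It had 6.49, 0.817 and 1.05 CPM in the scrambled and 19.1, 6.00 and 8.60 CPM in the knockdown libraries, from 156, 17 and 20 and from 374, 114 and 168 reads. Replicate 1 was the highest in both groups, as it was for EGLN3. CA9 was not called (log2 fold change 1.96, SE 0.88, adjusted p = 0.107), and without scrambled replicate 1 it was (log2 fold change 3.59, adjusted p = 0.00113). It was also called with the replicate number as a block (log2 fold change 2.21, adjusted p = 2.19e-05), by limma-voom (adjusted p = 0.00787) and without robust moderation (adjusted p = 0.0171). Among the 10 genes, replicate 1 was also the highest in both groups for ANKRD37 and BNIP3L.

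The largest rises in the list of other HIF targets mostly outside glycolysis, also picked after their values were seen, were EDN1 and TMEM45A. EDN1, which encodes the vasoconstrictor endothelin-1, rose from 6.56 ± 0.782 to 50.7 ± 14.3 CPM (7.73-fold, log2 fold change 2.95, SE 0.21, adjusted p = 9.41e-07). TMEM45A, a membrane protein, rose from 4.94 ± 0.516 to 31.8 ± 10.2 CPM (6.44-fold, adjusted p = 2.58e-06). P4HA1, a collagen prolyl hydroxylase picked in the same way, rose from 127 ± 12.4 to 252 ± 29.2 CPM, while its relative P4HA2 fell from 143 ± 15.5 to 101 ± 5.00 CPM (SD, n = 3 throughout).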
